A study of Mus musculus with 7 samples.

Results

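Lysosomal gene expression was followed through 40 genes that were chosen by symbol, among the 42689 genes to which the deposited transcripts could be assigned. They encode 10 proteases, 9 glycosidases, 2 sulfatases, 4 lipid enzymes, 3 soluble cofactors, 6 membrane proteins, 5 chains of the vacuolar proton pump (V-ATPase) and the transcription factor Tfeb. All 40 were found and all 40 passed the filter on low counts. Their estimated counts ran from 17, for Gla, to 2936, for Psap, in single libraries.

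The study concerned the kinase TAK1 in heterotopic ossification, the growth of bone in injured soft tissue. RNA came from hindlimb tendon of mice of C57BL/6 background, taken between the calf muscle and the heel bone, and the labels give no age. The tenotomy group (n = 2) was the left Achilles tendon, cut at its midpoint, of mice that also received a partial-thickness burn of the back (60 °C for 18 s over 30% of the body surface), 3 weeks after both injuries. The contralateral group (n = 3) was the uncut right tendon of burned and tenotomised mice at the same time, so it shares the burn with the tenotomy group. The uninjured group (n = 2) was tendon of wild-type mice with neither burn nor tenotomy. All burned mice had been given buprenorphine after surgery. The labels do not say that libraries of a group came from separate animals, so p-values measure only the spread between these libraries, which may be technical. The protocols name a TruSeq RNA kit.

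Lysosomes are acidic organelles in which hydrolases break down proteins, glycans, glycosaminoglycans and lipids that arrive by endocytosis, phagocytosis and autophagy. The V-ATPase pumps protons into the lumen, glycosylated membrane proteins such as LAMP1 and LAMP2 line the inside, and soluble cofactors present lipids to the enzymes. TFEB and its relatives TFE3 and MITF bind a short palindrome, often called the CLEAR element, in the promoters of many of these genes. Macrophages and osteoclasts are rich in lysosomes, and both are known from healing tendon or from bone.

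Library totals lay between 25927171 and 36725106 estimated counts, of which 5 dominant features took 76.4 to 81.4%, leaving 4934057 to 8375626 counts for all others. The libraries did not all group by their labels. Uninjured replicate 1 lay nearer to the tenotomy mean than to the contralateral mean for 11930 of 16028 genes tested, and uninjured replicate 2 for 4810. Skeletal muscle markers were abundant in tissue labelled tendon. The 12 markers summed to 19962 to 21422 CPM (counts scaled to a common library total) in contralateral libraries against 1649 and 1653 at the tenotomy site, and to 2128 and 14322 in uninjured replicates 1 and 2. Tendon markers (6 genes) summed to 153 to 252 CPM in contralateral, 318 and 322 in tenotomy and 300.2 and 236 in uninjured libraries. All 12 muscle markers were lower at the tenotomy site (Acta1 by log2 -4.19 and Ckm by -3.15).

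At the tenotomy site the 40 lysosomal genes were mostly more abundant than in the contralateral tendon. In edgeR's quasi-likelihood test with Benjamini-Hochberg adjustment, 21 of 40 rose, 2 fell (Smpd1 and Tfeb) and 17 did not pass, beside a background of 13.6% of all genes tested that rose and 15.4% that fell. The median log2 fold change was 0.70 over the 40 genes and -0.0012 over all genes, and 31 of the 40 estimates were above 0. Both tenotomy libraries lay above all 3 contralateral libraries for 26 members and below all 3 for 5, against 31.9% and 31.8% of all genes. Such a lack of overlap was common over all genes, and the same shares apply to each single gene described below. Summed over the 40 genes, the contralateral libraries held 311, 348 and 342 CPM and the tenotomy libraries 522 and 524. More cells of a lysosome-rich type, a smaller share of muscle RNA and more lysosomal RNA per cell cannot be told apart in bulk tissue.

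**Figure D1:**
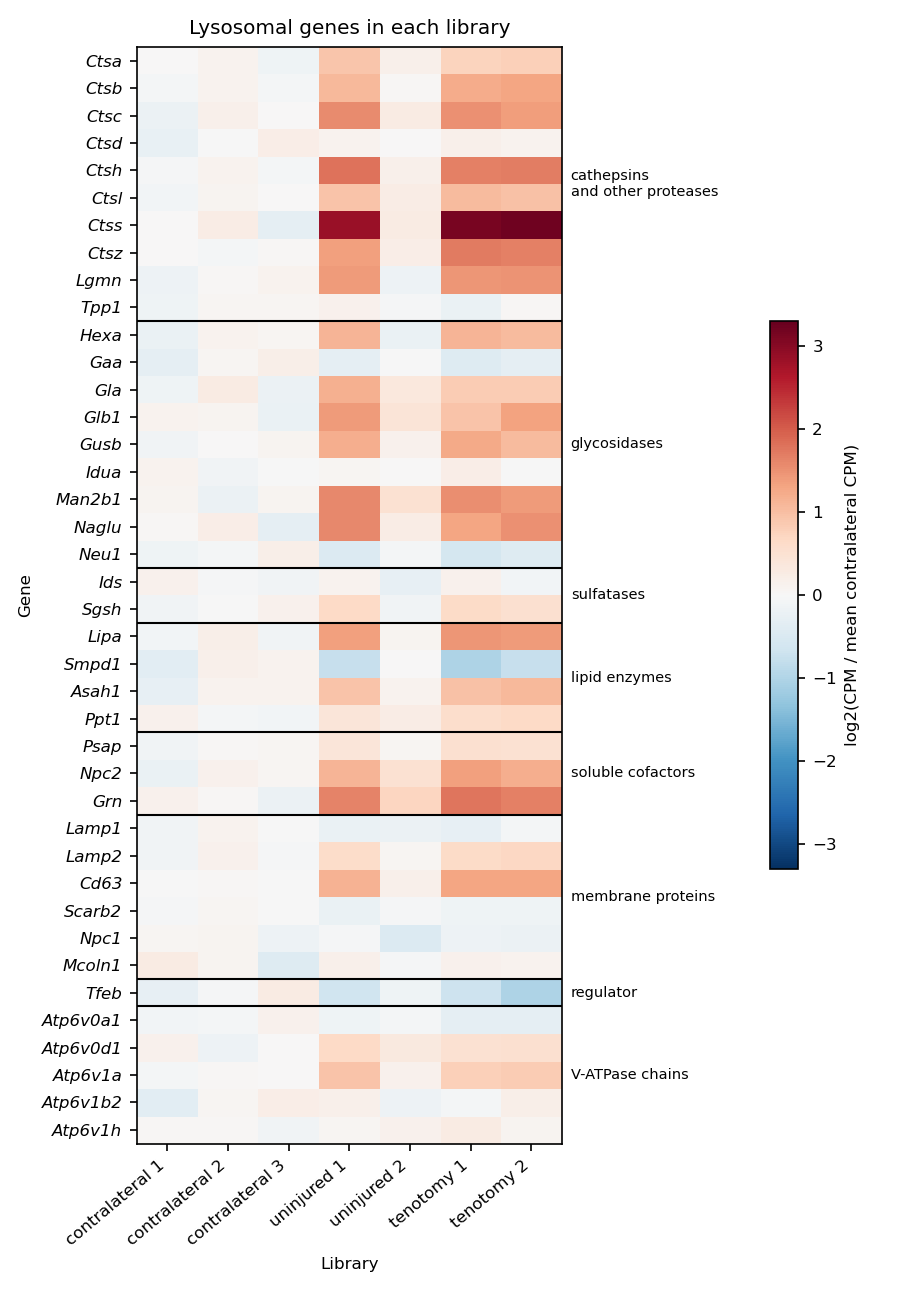
Heat map of the 40 lysosomal genes (rows, by role) in the 7 libraries (columns); colour is the log2 ratio of a library's CPM to the mean contralateral CPM. Most proteases and glycosidases are red in both tenotomy libraries and in uninjured replicate 1 and pale in uninjured replicate 2, Ctss is darkest, and Smpd1 and Tfeb are blue at the tenotomy site.

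Macrophage markers moved with this increase. Their summed level over 14 genes was 40.3 to 50.3 CPM in contralateral libraries and 155 and 160.3 in tenotomy libraries, and 155 and 50.4 in uninjured replicates 1 and 2. The test called 11 of the 14 higher at the tenotomy site, beside 13.6% of all genes tested. Among them were Adgre1 (encoding F4/80, log2 fold change 2.43), Csf1r (the receptor for macrophage colony-stimulating factor, 1.31) and the complement gene C1qa (1.98). The estimate of 1 of the 14, Cd163, was below 0 (log2 -0.23, SE 0.18, edgeR adjusted p = 0.37, named after its value was seen). Both tenotomy libraries lay below all contralateral libraries for Cd163. Markers of fibroblasts (5 of 6 higher), cartilage (5 of 6 higher) and adipocytes (3 of 5 lower) changed as well, beside 13.6% of all genes higher and 15.4% lower. Osteoclast markers were scarce: of 6, 3 had enough counts to be tested, 1 rose (Mmp9, named after its value was seen), and Calcr, the calcitonin receptor, had 0 counts in both tenotomy libraries. The part of these cell types, and that of skeletal muscle, in the lysosomal results was not tested.

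The calls were made in a fit in which the 7 libraries share 1 estimate of the spread, to which the distant uninjured pair contributes. When only the tenotomy and contralateral libraries were fitted, 25 members rose and 5 fell, beside 22.1% and 24.1% of all genes, and all 21 rises were among the 25. Leaving out any 1 tenotomy or contralateral library from the fit of all groups left 0 members and 0% of all genes called by edgeR in either direction, with 19 to 23 members higher and 1 to 4 lower at an unadjusted p under 0.05. Leaving out the same libraries from the fit of the 2 groups left 22 to 26 members higher, always including the 21, beside 14.7 to 23.3% of all genes. In the same fits 2 to 5 members were lower, beside 17.4 to 25.2% of all genes. The median log2 ratio of the 40 genes to the contralateral mean was 0.68 in tenotomy replicate 1 and 0.73 in tenotomy replicate 2. By the number in the sample title, tenotomy replicate 1 belongs to the same series as the contralateral libraries and tenotomy replicate 2 to a later one. Uninjured replicate 1 carries the number directly after that of tenotomy replicate 2 and falls in its series. No label calls the series a batch.

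**Figure D2:**
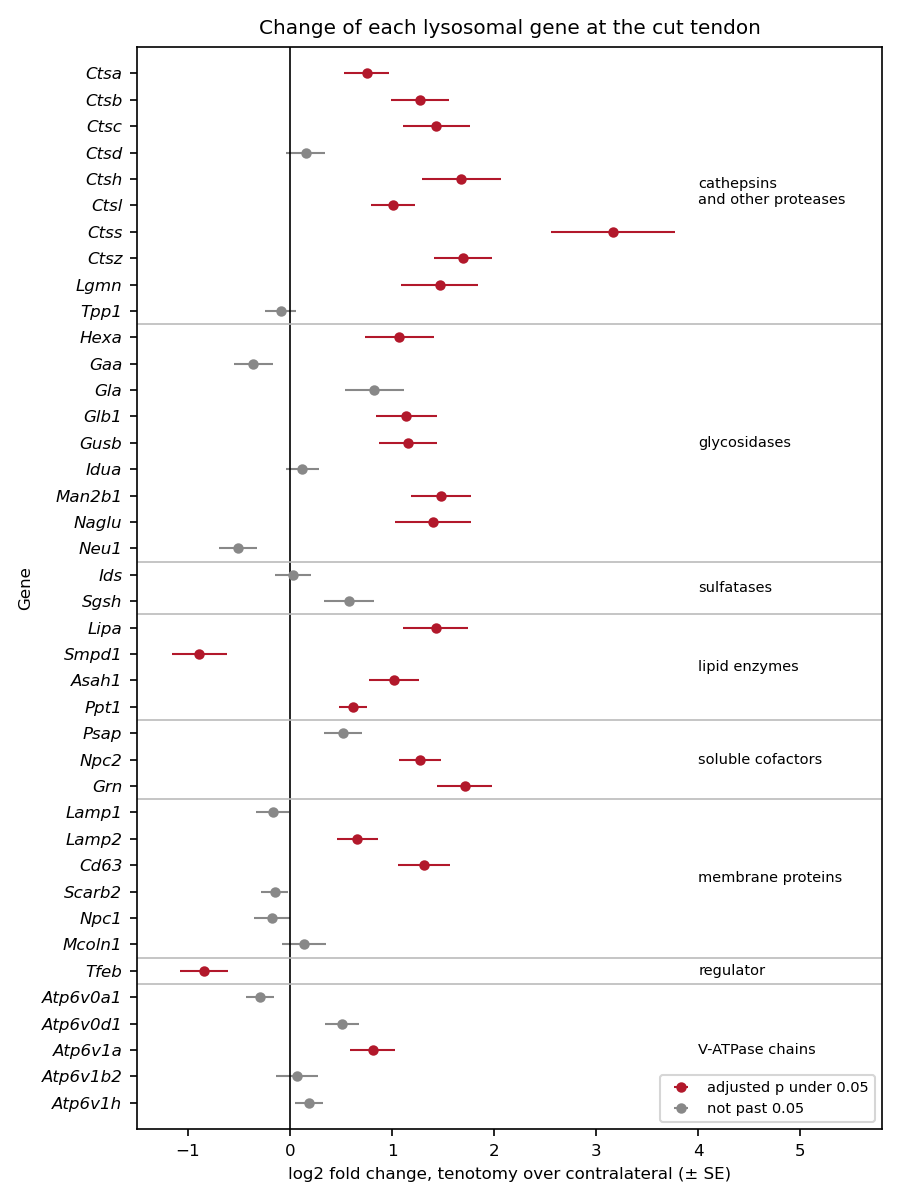
Log2 fold change of each lysosomal gene, tenotomy over contralateral, with its standard error (bars), ordered by role; red points passed an adjusted p of 0.05. Ctss lies farthest to the right at 3.16, proteases and glycosidases lie mostly right of 0, and membrane proteins and V-ATPase chains lie on both sides.

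Proteases gave 8 rises among 10 genes, beside 13.6% of all genes tested. Their median log2 fold change was 1.35. Their summed level was 92.9, 106 and 106 CPM in contralateral libraries and 199 and 202 CPM at the tenotomy site. The steepest was Ctss, encoding cathepsin S, a cysteine protease of antigen-presenting cells that trims the invariant chain of MHC class II (GRCm38, chr3:95526786-95556403, plus strand). Ctss was at 1.46, 1.71 and 1.18 CPM in contralateral and 12.6 and 13.4 CPM in tenotomy libraries. The groups did not overlap and the difference was 8.97-fold (log2 fold change 3.16, SE 0.60, edgeR adjusted p = 0.017). In uninjured libraries it was 10.5 and 1.75 CPM, so 1 uninjured library lay just below the tenotomy pair and the other near the contralateral libraries.

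Ctsb, which encodes cathepsin B, a widely expressed cysteine protease (chr14:63122462-63145923, plus strand), had the highest level per length of the proteases that rose. It went from 28.1, 31.6 and 28.2 CPM to 68.8 and 72.7 CPM, a 2.42-fold rise (log2 1.27, SE 0.29, edgeR adjusted p = 0.019). The 2 tenotomy values lay close together and far above the contralateral range. Ctsz, the carboxypeptidase cathepsin Z, stood at 2.62, 2.48 and 2.66 CPM against 8.54 and 8.23 CPM (log2 1.70, SE 0.28). Ctsh, an aminopeptidase, was at 2.10, 2.33 and 2.07 CPM against 6.88 and 7.03 CPM (log2 1.68, SE 0.39). For both, the contralateral libraries were nearly level and the tenotomy libraries over 3 times higher.

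Lgmn encodes legumain, an asparaginyl endopeptidase that also processes cathepsins, and rose by log2 1.46 (SE 0.38). Ctsc, the dipeptidyl peptidase that activates granule serine proteases, rose by 1.43 (SE 0.33). Ctsl, another cysteine cathepsin, rose by 1.01 (SE 0.21), and Ctsa, the carboxypeptidase that protects beta-galactosidase and neuraminidase, by 0.75 (SE 0.22). These 4 also showed no overlap between the groups, but Ctsa did not pass with length-scaled TPM. The remaining pair were the aspartic protease cathepsin D and tripeptidyl peptidase 1. Ctsd was at 27.5, 32.5 and 38.3 CPM in contralateral and 37.1 and 35.8 CPM in tenotomy libraries (log2 0.15, SE 0.19, edgeR adjusted p = 0.58). Both tenotomy values fell inside the contralateral range. Tpp1 was likewise mixed between the groups, at 6.18, 7.06 and 7.14 CPM against 5.85 and 6.93 CPM (log2 -0.09, SE 0.15), and its sign turned to 0.02 under upper quartile scaling. Part of the Ctsd exons is shared with the same-strand gene Gm49369, and Ctsl, Ctsb and Ctsa overlap other genes, so their counts carry that uncertainty.

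**Figure D3:**
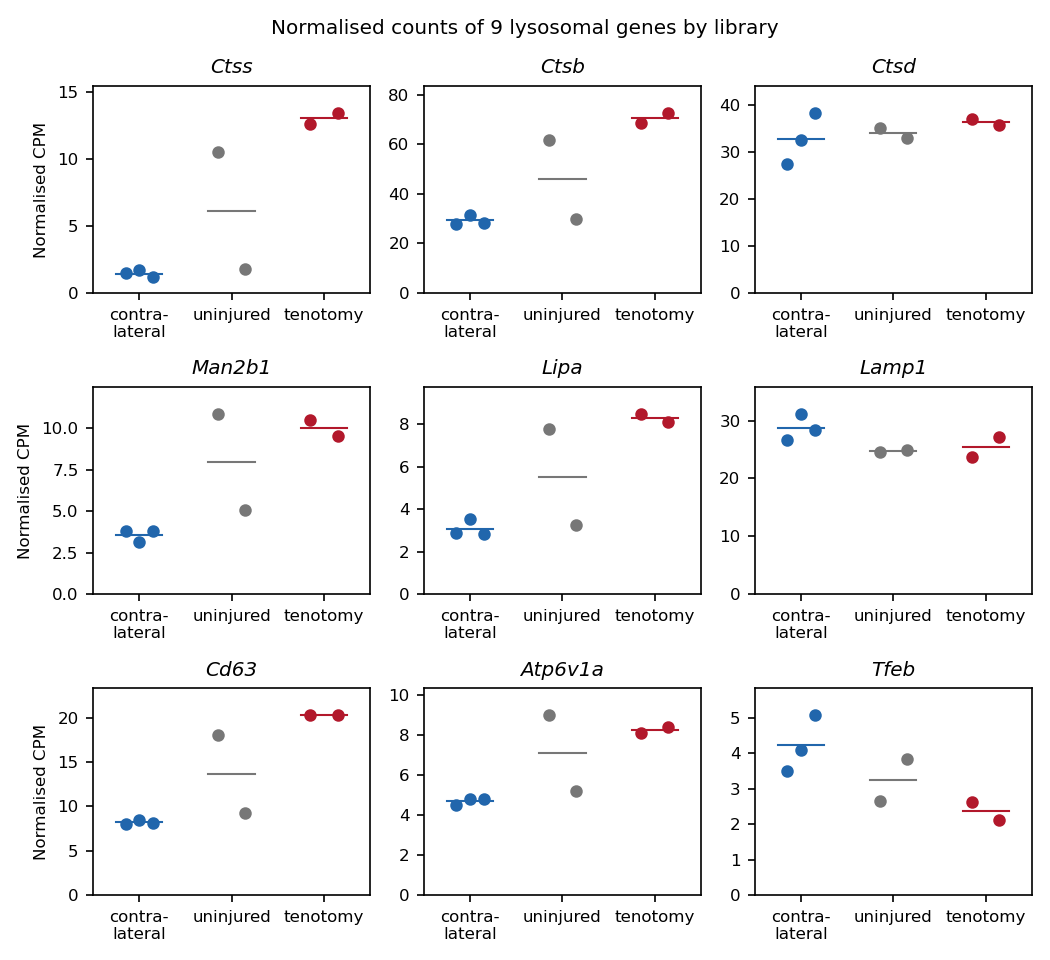
Normalised CPM of 9 lysosomal genes; each point is 1 library, drawn from left to right in the order of replicate numbers, and horizontal lines are group means. Ctss, Ctsb, Man2b1, Lipa, Cd63 and Atp6v1a are high in both tenotomy libraries and uninjured replicate 1, Ctsd and Lamp1 are similar throughout, and Tfeb is lowest at the tenotomy site.

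Among glycosidases, which remove sugars from glycoproteins, glycolipids and glycosaminoglycans, 5 of 9 rose, beside 13.6% of all genes tested. Their median log2 fold change was 1.07. Man2b1, lysosomal alpha-mannosidase, went from 3.82, 3.13 and 3.80 CPM to 10.5 and 9.53 CPM, which was 2.79-fold (log2 1.48, SE 0.29, edgeR adjusted p = 0.017). Naglu, which acts in heparan sulfate breakdown, rose by log2 1.40 (SE 0.37) from 0.711 to 1.02 CPM in contralateral libraries to 2.18 and 2.50 CPM. Gusb, beta-glucuronidase, rose by 1.16 (SE 0.28), Glb1, beta-galactosidase, by 1.14 (SE 0.30), and Hexa, the alpha subunit of hexosaminidase A, by 1.07 (SE 0.34). Hexa was close to the threshold (edgeR adjusted p = 0.049) and passed neither with limma-voom, with length-scaled TPM, nor with protein-coding transcripts only. Gusb did not pass with length-scaled TPM.

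The fit of all 7 libraries called none of the other 4 glycosidases. Gla, alpha-galactosidase A, had 0.637, 0.854 and 0.618 CPM against 1.25 and 1.27 CPM (log2 0.83, SE 0.29, edgeR adjusted p = 0.068), without overlap but on few counts. Gaa, the glycogen-degrading acid alpha-glucosidase, had 10.5, 13.4 and 14.5 CPM against 9.46 and 10.5 CPM (log2 -0.36, SE 0.19). Idua, which acts on dermatan and heparan sulfate, had 1.79 to 2.10 CPM against 2.26 and 1.93 CPM (log2 0.12, SE 0.16). For these last 2 the groups overlapped. When only the 2 groups were fitted, Gla passed as a rise (edgeR adjusted p = 0.015) and Gaa as a fall (log2 -0.37, adjusted p = 0.033).

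Neu1, neuraminidase 1, depended on which transcripts were summed. Its total was 2.92, 3.07 and 3.71 CPM against 2.15 and 2.40 CPM, which is log2 -0.51 (SE 0.19, edgeR adjusted p = 0.076). Except in tenotomy replicate 1, most of this total sat on a retained-intron transcript. Its estimated counts were 73.5, 103.4 and 112.5 in contralateral and 39.5 and 61.0 in tenotomy libraries. The protein-coding transcript held 4.5, 4.6 and 7.5 counts against 39.5 and 11, so its excess lay mostly in tenotomy replicate 1. With protein-coding transcripts only, the log2 fold change of Neu1 was 1.95 (edgeR adjusted p = 0.086), the opposite direction and also short of the threshold. The total of Neu1 passed as a fall when only the 2 groups were fitted (log2 -0.52, edgeR adjusted p = 0.016).

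The sulfatases Ids and Sgsh both act in heparan sulfate breakdown, and neither passed. Ids was at 8.70, 7.65 and 7.21 CPM against 8.59 and 7.40 CPM (log2 0.03, SE 0.17), with the groups intermixed. Sgsh was at 1.16, 1.25 and 1.39 CPM against 1.96 and 1.83 CPM (log2 0.58, SE 0.24, edgeR adjusted p = 0.11), and passed when only the 2 groups were fitted (adjusted p = 0.020). Sgsh shares 955 exon bases with Card14 on the opposite strand.

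The lipid enzymes divided, with 3 rises and 1 fall, beside 13.6% and 15.4% of all genes tested. Lipa, the acid lipase that frees cholesterol and fatty acids from lipoprotein esters, went from 2.89, 3.53 and 2.81 CPM to 8.49 and 8.10 CPM (2.69-fold, log2 1.43, SE 0.32, edgeR adjusted p = 0.019). Asah1, acid ceramidase, rose by log2 1.02 (SE 0.25) and Ppt1, which removes palmitate from proteins, by 0.62 (SE 0.14). Neither Asah1 nor Ppt1 passed with length-scaled TPM, and Asah1 did not pass with protein-coding transcripts only. Smpd1 encodes acid sphingomyelinase, which makes ceramide, the substrate of acid ceramidase. It was at 3.52, 5.04 and 4.79 CPM in contralateral and 2.20 and 2.63 CPM in tenotomy libraries. Both tenotomy values lay below all contralateral ones and the change was log2 -0.89 (SE 0.27, edgeR adjusted p = 0.043), a call not made by DESeq2 or with length-scaled TPM.

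Of the soluble cofactors, Grn and Npc2 rose. Grn encodes progranulin, a glycoprotein cleaved to granulins in the lysosome (chr11:102430315-102437048, plus strand), and went from 5.92, 5.52 and 4.73 CPM to 18.2 and 17.1 CPM (3.27-fold, log2 1.71, SE 0.27, edgeR adjusted p = 0.017). Npc2, which hands cholesterol to NPC1, went from 4.20, 5.41 and 5.10 CPM to 12.5 and 11.2 CPM (log2 1.27, SE 0.21). Its membrane partner Npc1 was at 11.4, 11.6 and 9.71 CPM against 9.74 and 9.50 CPM (log2 -0.18, SE 0.17, edgeR adjusted p = 0.48). The 2 genes of this cholesterol route thus gave estimates of opposite sign, of which that of Npc1 did not pass. Psap, the precursor of the saposins that assist sphingolipid enzymes, was the most abundant member per length. Psap was at 50.9, 56.4 and 57.6 CPM against 79.8 and 77.6 CPM (log2 0.52, SE 0.18, edgeR adjusted p = 0.067), with no overlap, and passed when only the 2 groups were fitted (adjusted p = 6.5e-04).

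Membrane proteins had a median log2 fold change of -0.01, and 2 of 6 rose, beside 13.6% of all genes tested. Cd63, a tetraspanin of late endosomes and lysosomes, went from 8.06, 8.42 and 8.10 CPM to 20.3 and 20.3 CPM (2.48-fold, log2 1.31, SE 0.26, edgeR adjusted p = 0.017). Lamp2, a major glycoprotein of the lysosomal membrane, went from 20.6, 24.4 and 21.8 CPM to 34.5 and 35.7 CPM (log2 0.66, SE 0.20, edgeR adjusted p = 0.045). The call of Lamp2 was not made with length-scaled TPM or with no filter on low counts. Lamp1, the relative of Lamp2, was at 26.6, 31.1 and 28.3 CPM against 23.8 and 27.2 CPM (log2 -0.17, SE 0.16, edgeR adjusted p = 0.47), with the groups overlapping. Scarb2, the receptor that carries beta-glucocerebrosidase, was at 8.32 to 8.91 CPM against 7.72 and 7.73 CPM (log2 -0.15, SE 0.13). Mcoln1, the calcium channel TRPML1, was at 1.73 to 2.77 CPM against 2.56 and 2.53 CPM (log2 0.14, SE 0.21). The difference in response between the groups of genes was not tested.

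V-ATPase chains had a median log2 fold change of 0.18, and 1 of 5 rose, near the 13.6% of all genes tested that rose. Atp6v1a, the catalytic A subunit, went from 4.53, 4.81 and 4.79 CPM to 8.13 and 8.40 CPM (1.75-fold, log2 0.81, SE 0.22, edgeR adjusted p = 0.032). The contralateral values were tight and both tenotomy values clearly above them, but Atp6v1a did not pass with length-scaled TPM. Atp6v1b2, the nucleotide-binding partner of Atp6v1a in the same head of the pump, was at 4.35, 5.78 and 6.34 CPM against 5.25 and 6.30 CPM (log2 0.07, SE 0.20, edgeR adjusted p = 0.83). Atp6v0d1, of the membrane sector, was at 2.45 to 3.07 CPM against 3.92 and 3.97 CPM (log2 0.51, SE 0.17, adjusted p = 0.054). Atp6v1h, a regulatory subunit, had a log2 fold change of 0.18 (SE 0.14), and Atp6v0a1, an isoform of the proton-translocating a subunit, of -0.30 (SE 0.14). Neither passed. In each, both tenotomy libraries lay outside the contralateral range, as they did for 31.9% (above) and 31.8% (below) of all genes. When only the 2 groups were fitted, Atp6v0d1 passed as a rise (edgeR adjusted p = 0.011) and Atp6v0a1 as a fall (adjusted p = 0.038).

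Per length, the most abundant members were largely the same in both groups, while several others changed rank. By mean TPM, Psap, Ctsd, Lamp1 and Cd63 were the 4 highest of the 40 in contralateral tendon, and Psap, Cd63, Ctsd and Ctsb at the tenotomy site. Ctss moved from rank 31 to rank 7, and Tfeb from rank 9 to rank 27. Npc1 went from rank 18 to rank 31 and Lipa from rank 34 to rank 24. At 4.48 and 4.24 mean TPM at the tenotomy site, Psap and Cd63 were near each other, while Gla ranked last in both groups.

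Tfeb, the factor that drives many lysosomal genes when it enters the nucleus (chr17:47737030-47792419, plus strand), fell. Its level was 3.49, 4.10 and 5.07 CPM in contralateral and 2.61 and 2.10 CPM in tenotomy libraries, with no overlap (log2 -0.84, SE 0.24, edgeR adjusted p = 0.034). With length-scaled TPM it did not pass. Tfe3, its close relative, rose by log2 0.82 (SE 0.19) and Mitf was at -0.07 (SE 0.15). TFEB activity is controlled largely by its location in the cell, which RNA levels do not measure.

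The palindrome TCACGTGA, the core of the element bound by TFEB, was searched on both strands in the RefSeq promoters (GRCm38.p6, 250 bases before to 50 after each start), which 34 of the 40 members matched. It was present in 6 of these 34 (17.6%), against 1.12% of 27025 RefSeq genes with such a window. The element is known from promoters of many lysosomal genes, so a higher share among members was foreseen and is no new evidence. The shorter TCACGTG, which the palindrome contains, was present in 35.3% of members and 4.29% of all genes, and CACGTG, contained in both, in 38.2% and 8.09%. The window of Ctsa holds a second copy just after the start, and that of Gla a second copy that begins 195 bases before it. The first palindrome of each of the 6 members is shown in 30 bases of the gene's strand. This sets members that share the motif side by side, and capitals mark the palindrome.
Ctsa: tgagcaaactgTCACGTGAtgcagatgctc
Atp6v1a: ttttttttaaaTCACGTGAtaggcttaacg
Atp6v0d1: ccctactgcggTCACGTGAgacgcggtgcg
Ctsd: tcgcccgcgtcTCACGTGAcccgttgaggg
Gla: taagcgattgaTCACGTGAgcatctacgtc
Mcoln1: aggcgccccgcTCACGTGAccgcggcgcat

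These windows lie at chr2:164833749-164833778 (plus strand) for Ctsa, chr16:44139373-44139402 (minus) for Atp6v1a, chr8:105566050-105566079 (minus) for Atp6v0d1, chr7:142387908-142387937 (minus) for Ctsd, chrX:134601215-134601244 (minus) for Gla and chr8:3500462-3500491 (plus) for Mcoln1. The palindrome shown begins 4 bases before the start in Atp6v0d1, 13 in Ctsa, 46 in Mcoln1, 99 in Ctsd, 132 in Atp6v1a and 228 in Gla. Outside it, the flanks differ between the genes. At the tenotomy site 2 of the 6 rose (Ctsa and Atp6v1a) and Ctsd, Mcoln1, Gla and Atp6v0d1 did not pass, with a median log2 fold change of 0.63. Of the 28 members whose window lacks the palindrome, 16 rose and 2 fell, with a median of 0.83. Over all genes tested, 13.6% rose and 15.4% fell. A match is a description of letters and does not show that a factor was bound.

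Other lysosome genes, listed by role, give the setting of the 40. Their counts stand beside 13.6% of all genes tested that rose and 15.4% that fell. Of 31 other lysosomal enzymes tested, 15 rose and 16 did not pass. The largest rises were Ctsk, the collagen-degrading cathepsin K of osteoclasts and activated fibroblasts, from 4.05, 3.16 and 2.54 CPM to 25.4 and 26.0 CPM (log2 2.99, SE 0.62), and Ifi30, the lysosomal thiol reductase of antigen-presenting cells (log2 2.03, SE 0.39). Acp5, the tartrate-resistant phosphatase of osteoclasts, was at 1.57 to 3.19 CPM against 1.93 and 2.53 CPM (log2 -0.22, SE 0.38), fully overlapping. Of 23 other membrane proteins tested, 7 rose, led by the macrophage glycoprotein Cd68 (log2 2.51, SE 0.50) and by Laptm5 of blood cells (2.30, SE 0.39). Both of these, like Ctss, are known from macrophages.

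Among 16 other V-ATPase chains tested, 4 rose and 2 fell, beside 13.6% and 15.4% of all genes tested. Atp6v0d2, a d subunit isoform of osteoclasts and macrophages, had 2, 4 and 3 counts in contralateral, 59 and 52 in tenotomy and 36 and 3 in uninjured libraries, too few in the contralateral group for a fold. Atp6v0a4 (log2 1.44, SE 0.28) and Tcirg1, the a subunit isoform of osteoclasts (1.26, SE 0.36), also rose, whereas Atp6v0e2 (-1.98, SE 0.45) and Atp6v1d (-0.87, SE 0.21) fell. Rises and falls side by side were also found over all genes, so this mix is not particular to the pump's genes.

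Of 11 genes that sort lysosomal enzymes, Sort1, encoding sortilin, fell by 1.19 on the log2 scale (SE 0.31) and 10 did not pass, among them Igf2r, the mannose 6-phosphate receptor (log2 0.21, SE 0.15). Among 16 TFE factors and mTORC1 docking genes tested, 1 rose and 4 fell, the largest falls being Rragd, a RAG GTPase that recruits mTORC1 and TFE factors to the lysosome (log2 -3.19, SE 0.63), and Mtor (-0.91, SE 0.17). Of 17 autophagy genes, Gabarap (0.69, SE 0.19) and Atg7 (0.66, SE 0.16) rose and the cargo receptors Optn (-2.08, SE 0.48) and Sqstm1 (-1.09, SE 0.21) fell. These autophagy calls (2 higher and 2 lower) were near the shares over all genes, 13.6% and 15.4%. Among cystatins, inhibitors of cysteine cathepsins, Cst6 (-1.38, SE 0.37) and the secreted Cst3 (-0.59, SE 0.17) fell among 3 tested. Over all 117 tested genes of these lists, 29 rose, 11 fell and the median log2 fold change was 0.25. Of all genes tested, 13.6% rose and 15.4% fell, with a median of -0.0012, so falls were no more frequent in these lists.

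**Figure D4:**
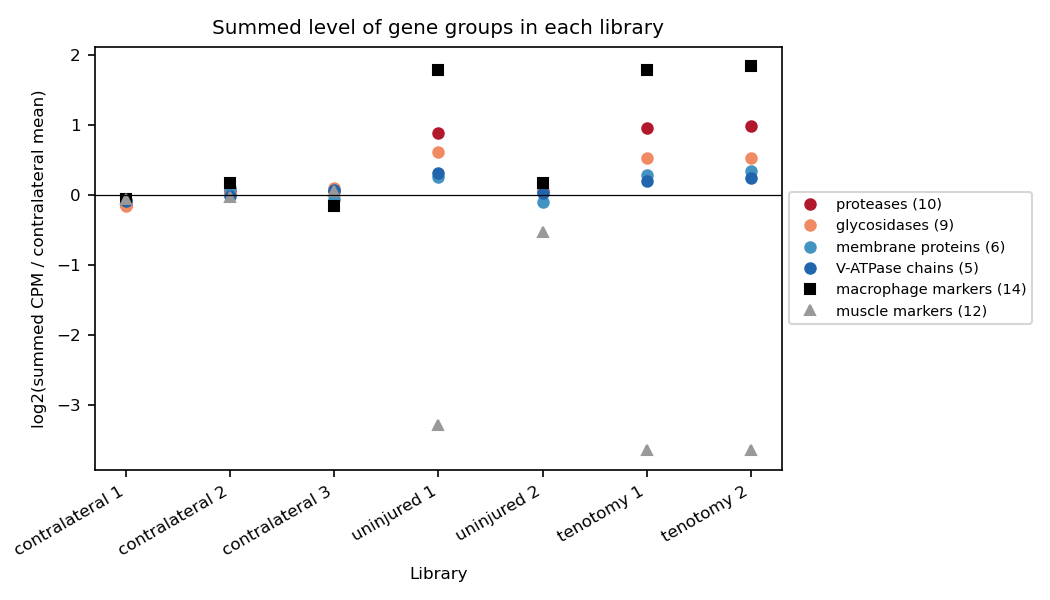
Log2 ratio of the summed CPM of each gene group to its contralateral mean, by library; circles are lysosomal groups, squares the 14 macrophage markers and triangles the 12 muscle markers. Tenotomy libraries and uninjured replicate 1 show macrophage markers and proteases above 0 and muscle markers far below it, while uninjured replicate 2 lies close to the contralateral libraries except in muscle markers, which are lower there too.

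The uninjured group did not take a single position between the others. Uninjured replicate 1 was nearer to the tenotomy mean than to the contralateral mean for 37 of 40 members, against 74.4% of all genes tested. By title number it shares a series with tenotomy replicate 2, and the part of this was not tested. Uninjured replicate 2 was nearer to the tenotomy mean for 4 of 40, against 30.01% of all genes tested. The 40 genes summed to 504 CPM in replicate 1 and 343 CPM in replicate 2. Ctsb gives an example, at 61.9 and 30.0 CPM, and so does Lipa, at 7.80 and 3.27 CPM. Cd63 was at 18.0 and 9.26 CPM, Grn at 16.9 and 8.74 CPM, and Tfeb at 2.66 and 3.82 CPM. In each of these, replicate 1 sat near the tenotomy values and replicate 2 at or nearer the contralateral ones.

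Tenotomy against uninjured gave no call in either direction in edgeR, for the members or for any gene (0% of all genes higher and 0% lower). At an unadjusted p under 0.05, 1 member was higher (Ctsz, log2 0.80, SE 0.31, edgeR adjusted p = 0.45), against 3.27% of all genes. DESeq2 and limma-voom called 0 members too. The estimates were above 0 for 33 of 40 members, with a median of 0.24. Without uninjured replicate 1, 20 members were higher and 1 lower, beside 11.4% and 13.7% of all genes, a comparison that rests on uninjured replicate 2 alone and assumes that it varies like the other groups. Without uninjured replicate 2, edgeR called 0 members (1 higher at an unadjusted p under 0.05), 18 of 40 estimates were above 0 and their median was -0.044. The direction of the members' median thus depended on which uninjured library was kept. With the series of title numbers in the fit, 21 of 40 estimates were above 0, with a median of 0.010. That contrast rests on uninjured replicate 1 alone, because uninjured replicate 2 is the only library of its series.

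Contralateral against uninjured likewise gave no edgeR call (0% higher and 0% lower over all genes). It shares the contralateral libraries with the first comparison. At an unadjusted p under 0.05, 18 members were lower in contralateral tendon, against 10.5% of all genes, and limma-voom called 0. DESeq2 called 3 members lower, beside 0.886% of all genes. The median log2 fold change was -0.54. Ctss had the lowest estimate, at -2.07 (edgeR adjusted p = 0.21). Without uninjured replicate 2, 24 members were lower and 2 higher, beside 15% and 16.9% of all genes, which rests on uninjured replicate 1 alone and assumes that it varies like the other groups. Without uninjured replicate 1, edgeR called 0 members (3 lower and 1 higher at an unadjusted p under 0.05), and the median was -0.074 with 15 of 40 estimates above 0. When the series of title numbers entered the edgeR fit, 17 members were lower, beside 7% of all genes lower and 8.39% higher, with a median of -0.78. Uninjured replicate 2 is the only library of its series, so that contrast also rests on uninjured replicate 1 alone. Macrophage marker sums (155 and 50.4 CPM) and muscle marker sums (2128 and 14322 CPM) also differed between the uninjured libraries, and their part in these values was not tested.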

How the data were processed

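RNA was sequenced from 7 libraries of mouse hindlimb tendon, grouped by the condition label. The estimated counts per transcript that the authors deposited can be fractional and were not normalised, judging from the values and per the file headers. The TPM deposited by the authors are scaled by effective transcript length. The submitters' processing notes name kallisto, with no version, and FastQC 0.11.4. They also list the build GRCh38, although the transcript IDs are mouse Ensembl IDs. Whether counting used strand is not given in the sources used here.

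Transcript IDs were matched without version to GENCODE M21 (GRCm38), which 101510 of 103639 did, and unmatched transcripts were kept as single features. Estimated counts were summed per gene and rounded. After filterByExpr (minimum count 10, by group), 16028 features, called genes here, were tested with edgeR 4.0.16 (quasi-likelihood, TMM scaling, 3 group means, R 4.3.3). P-values were Benjamini-Hochberg adjusted over all of them within a comparison and called below 0.05. The SE was taken from the F statistic (the absolute log2 fold change over the root of F). CPM are TMM-scaled counts at a common library total, and differences of single libraries are log2 ratios to the contralateral mean CPM. The edgeR script was tested on simulated data.

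The 40 genes, the other lists and the tests were chosen with earlier results of these data known. All 40 are reported. From other lists the text may name the 2 largest rises and falls past the threshold without overlap between libraries, plus Atp6v0d2, Tcirg1, Ctsk, Acp5, Cd68, Igf2r, Tfe3, Mitf, Cst3, Adgre1, Csf1r, C1qa, Acta1, Ckm and Calcr; 1 further gene of this rule is not reported here. Alternatives were RLE and upper quartile scaling, DESeq2 1.42.0, limma-voom (limma 3.58.1), no filter and a filter at 50 counts, fits of 2 groups, length-scaled TPM, removal of dominant features or of muscle and mitochondrial genes, a title-number covariate, and leaving out each library. Protein-coding transcripts only, and 2-group fits without each library, were added after seeing the data.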

Additional observations from a re-analysis of the deposited data

How the results depend on the processing

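Of the log2 fold changes of the 40 genes (tenotomy against contralateral) recomputed under all alternatives, 766 kept their direction and side of the threshold. Another 129 lost a call, 47 gained one and 17 changed sign. Each fit of all groups without 1 contralateral library called 0 members and 0% of all genes, so every call was lost there. The cause of these changes was not tested. Members called higher at the tenotomy site against contralateral numbered 15 with length-scaled TPM (14 of them among the 21), beside 9.02% of all genes. This was the fewest under the alternatives that kept all libraries of these groups. The most was 25, as with only the 2 groups fitted (22.1% of all genes). Leaving out a contralateral library gave 0 (0% of all genes) to 26 (21.4%). Members called lower numbered 2 (15.4% of all genes), against 1 with DESeq2 (12.9%). They numbered 5 with only the 2 groups fitted (24.1%) and 0 with length-scaled TPM (10.9%). Leaving out a contralateral library gave 0 (0%) to 5 (25.2%). Against uninjured, leaving out a library gave 0 to 20 members higher and 0 to 1 lower at the tenotomy site, and 0 to 2 higher and 0 to 24 lower in contralateral tendon. Contralateral members called lower than uninjured numbered 3 with DESeq2 and 3 with no filter on low counts, beside 0.886% and 0.835% of all genes. With the title-number covariate they numbered 17, beside 7% of all genes, which rests on uninjured replicate 1 alone. Upper quartile scaling moved the median of all genes to 0.11.

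Signs changed for members near 0 and for Neu1, which was 1.95 with protein-coding transcripts only. Tpp1 was 0.022 under upper quartile scaling, Idua -0.15 with length-scaled TPM and Atp6v1b2 -0.073 with the title-number covariate. Leaving out a library of the fit of all groups gave ranges of -0.22 to 0.024 for Tpp1, -0.0034 to 0.22 for Idua, -0.089 to 0.12 for Ids, -0.033 to 0.28 for Mcoln1 and -0.074 to 0.19 for Atp6v1b2, with the sign turned without tenotomy replicate 1 (Tpp1, Idua, Ids), tenotomy replicate 2 (Atp6v1b2), contralateral replicate 1 (Atp6v1b2) or contralateral replicate 3 (Ids, Mcoln1). In the fit of the 2 groups, leaving out contralateral replicate 1 gave Atp6v1b2 -0.076. Without contralateral replicate 3 it gave Ids -0.034, Mcoln1 -0.040 and 4 members lower (5 without contralateral replicate 1). Without tenotomy replicate 1 it gave Tpp1 0.024 and Ids -0.085, and without tenotomy replicate 2 Atp6v1b2 -0.069. No paired analysis was possible because the replicate numbers were given in accession order and pair no libraries.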
